A study of Mus musculus with 4 samples.

Results

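The genes described here are the 3β-hydroxysteroid dehydrogenase family of the mouse (Hsd3b1 to Hsd3b7) together with Star and Akr1b7, in livers of mice made obese by diet (DIO mice) and given galanin-like peptide (GALP) through the nose. The 9 genes were chosen by name, with measured decreases of several of them already known, and every array probe that carries one of the names was kept. They are 9 of 26518 names on the array and 14 of its 41037 probes. Since the choice used the GALP over control ratios, those ratios are given as a description, with no test on the members.

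All mice were male C57BL/6J, bought at 8 weeks of age and kept on high-fat feed, over 14 weeks, until they weighed at least 40 g, and this feed went on during the treatment. The treated mice received 2 µL of porcine GALP (1-60), dissolved in saline with α-cyclodextrin, once daily for 11 days, and the control mice received saline. Liver RNA of the treated mice was pooled in 2 pools of 4 mice, one of mice with greater weight loss and one of mice with less weight loss, and the control RNA was, by the study's methods, 1 pool of 8 mice. The labels give the saline channel of each array a weight-loss group as well, so by the labels alone a control RNA for each pool cannot be told apart from a shared one. Each GALP pool was hybridized against the control pool on 2 Agilent 2-colour arrays with the dyes exchanged. Arrays 1 and 2 hold the pool with greater weight loss and arrays 3 and 4 the pool with less, with GALP in Cy5 on arrays 1 and 3 and in Cy3 on arrays 2 and 4. The 2 arrays of a pool carry the same RNA, so n is 2 pools, and the spread among the control mice enters no error given below. In liver RNA, fewer cells of a type and less RNA per cell cannot be told apart.

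The Hsd3b enzymes oxidize the 3β-hydroxyl group of steroids and move the neighbouring double bond, a step that every active steroid hormone passes through. In the mouse, Hsd3b1 and Hsd3b6 are the forms of steroid-producing glands, Hsd3b2 and Hsd3b3 are known from kidney and liver, and the Hsd3b4 and Hsd3b5 enzymes act mainly as 3-ketosteroid reductases that inactivate hormones. Hsd3b5 is a classic male-biased liver gene that depends on the male pattern of growth hormone release and on the factor STAT5. Hsd3b7 is set apart, since it acts on sterols of bile acid synthesis. Star carries cholesterol to the inner mitochondrial membrane, the entry step of steroid synthesis, and Akr1b7 is an aldo-keto reductase known for clearing aldehydes in the adrenal cortex.

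Hsd3b4, Hsd3b5 and Hsd3b1 were the 3 members called lower by a rule built here on the thresholds of the study's methods, which ask for changes common to both pools. It requires that the p-value which the Feature Extraction software gives a ratio is under 0.01 on all 4 arrays, the same direction on all 4, and a fold under 0.75 (or over 1.5) in both pools. No member was called higher. Over all probes tested, 54 of 41037 (0.132%) were called lower and 24 (0.0585%) higher. Since the members were chosen with these decreases known, nothing is read from the comparison of the 3 calls with this background.

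The probes whose values carry the result are shown here, because the family members are close relatives and the letters show how far the probes themselves differ. Each is 60 bases long. Capitals mark runs of 8 or more bases that also occur in the probe of another gene of the set.
Hsd3b4 A_51_P352005: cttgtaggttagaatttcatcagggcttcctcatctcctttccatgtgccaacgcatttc
Hsd3b5 A_51_P496162: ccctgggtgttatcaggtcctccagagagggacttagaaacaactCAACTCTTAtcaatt
Hsd3b1 A_51_P421418: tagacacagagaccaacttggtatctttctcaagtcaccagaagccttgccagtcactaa
Hsd3b6 A_52_P253567: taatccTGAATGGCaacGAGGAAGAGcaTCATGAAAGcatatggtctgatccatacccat
Hsd3b2 A_52_P339759: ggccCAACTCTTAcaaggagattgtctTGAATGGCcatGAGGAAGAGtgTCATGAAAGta
The Hsd3b4 and Hsd3b5 probes share no run longer than 6 bases, and at their best ungapped offset 35.6% of 59 aligned bases are equal. The closest pair is the last one, Hsd3b6 and Hsd3b2, with 79.5% of 39 aligned bases equal. The match of each probe to the full transcripts of its relatives was not tested. By accession, the Hsd3b4 probe belongs to 2 genes of the RefSeq table, Hsd3b4 and Gm10681, and the latter lists Hsd3b4 as a synonym, so its signal cannot be divided between them.

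Hsd3b4 (NM_008294) was read at chromosome 3, 98303072 to 98303131 of mm9, minus strand. Its processed signal in the control channel was 2038, 1704, 1968 and 2107 on arrays 1 to 4. In the GALP channel it was 595 and 489 with greater weight loss, and 95.9 and 84.9 with less. All GALP signals lay under all control signals, and all 8 channels were well above background. The log2 ratios of GALP over control were -1.78 and -1.80 with greater weight loss and -4.36 and -4.63 with less, which makes 3.45-fold and 22.6-fold lower. The mean was -3.14 ± 1.92 (SD, n = 2 pools).

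Hsd3b5 (NM_008295) was read 120 kb further along the same chromosome, at 98422848 to 98422907. Its control signal was 900, 617, 798 and 718 on arrays 1 to 4. Its GALP signal was 257 and 190 with greater weight loss, and 40.0 and 28.6 with less. Here too the channels did not overlap, but the GALP channel of array 4 was not well above background, so 1 of the 2 arrays of that pool gave a measured value on both sides. The pool ratios were -1.76 and -4.49 on the log2 scale, 3.38-fold and 22.4-fold lower, with a mean of -3.12 ± 1.93 (SD, n = 2 pools).

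The 4 array ratios of Hsd3b4 and Hsd3b5 almost coincided, at a Euclidean distance of 0.11 on the log2 scale. The log2 ratio with less weight loss minus that with greater was -2.71 for Hsd3b4 and -2.73 for Hsd3b5. The dye orientations of a pool differed by 0.03 and 0.27 for Hsd3b4 and by 0.11 and 0.33 for Hsd3b5. Among the 14951 probes well above background in all 4 control channels, the pools differed by a median of 0.10 and a 95th percentile of 0.45 (log2). By mean ratio Hsd3b4 was the 4th lowest of these probes. In the pool with less weight loss it was the 2nd lowest, and in the pool with greater weight loss the 59th. Since the gene was chosen with its decrease known, these ranks are a description only. The exact likeness and the pool difference of Hsd3b5 rest in part on its GALP signal at background on array 4. On array 3, where it was measured on both sides, its ratio was -4.32 beside -4.36 for Hsd3b4.

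These sizes were smaller under another processing. With normexp background correction, an offset of 50 on the signals and loess normalization together, the mean ratio was -1.79 for Hsd3b4 and -1.16 for Hsd3b5. The difference between the pools then was -0.86 for Hsd3b4 (-1.36 against -2.22) and -0.32 for Hsd3b5 (-1.0 against -1.32). The array ratios of the 2 genes then no longer coincided. On arrays 1 to 4 they were -1.32, -1.4, -2.26 and -2.18 for Hsd3b4 and -1.05, -0.95, -1.43 and -1.21 for Hsd3b5. Both genes were still called lower, with the p-values of Feature Extraction kept.

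**Figure D1:**
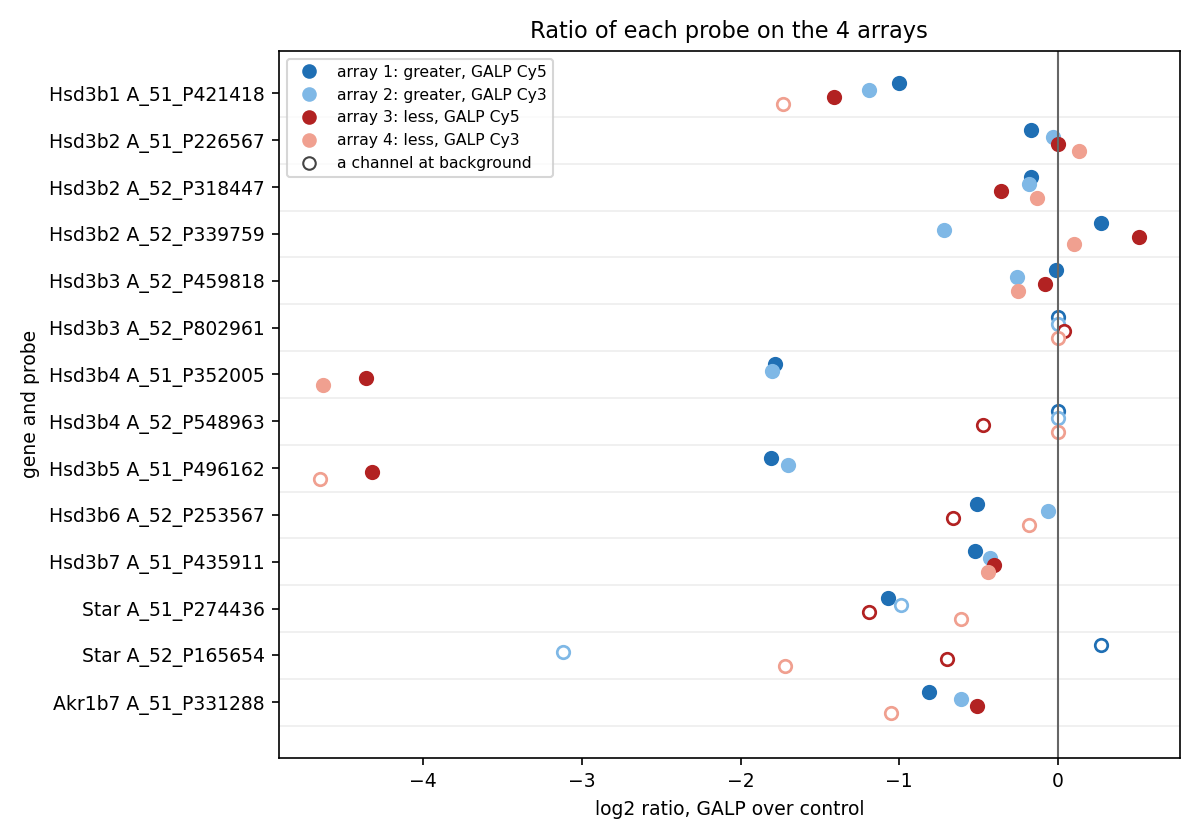
Log2 ratio of GALP over control (horizontal axis) for each of the 14 probes (vertical axis) on the 4 arrays, blue for the pool with greater weight loss and red for the pool with less. Open circles mark arrays where the GALP or the control channel was not well above background. The Hsd3b4 probe A_51_P352005 and Hsd3b5 fall into 2 pairs of points, near -1.8 and between -4.65 and -4.32, while the other probes lie between -1.73 and 0.51, except Star A_52_P165654 on array 2 (-3.12).

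Hsd3b1 (NM_008293), the steroidogenic form of adrenal and gonad, was read at chromosome 3, 98656330 to 98656389. Its control signal was 154, 112, 117 and 118, and its GALP signal 77.0, 49.1, 43.9 and 35.5. Every GALP signal was under every control signal, and the GALP channel of array 4 was not well above background. The ratios of the 4 arrays were -1.0, -1.19, -1.41 and -1.73. The pools were 2.14-fold and 2.97-fold lower, with a mean of -1.33 ± 0.34 (SD, n = 2 pools). The pools thus differed by -0.48 (less minus greater), next to dye gaps of 0.20 and 0.32. With normexp and loess this dim gene had a mean ratio of -0.24 and was no longer called.

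The other glandular form, Hsd3b6 (NM_013821), gave control signals of 54.9, 41.6, 51.1 and 50.4 and GALP signals of 38.5, 39.9, 32.4 and 44.5. The groups overlapped. In mice that lost more weight it had a log2 ratio of -0.29. In those that lost less, the GALP channel was at background on both arrays, and the limit was 1.3-fold lower. That limit lies near the 1.34-fold of the measured ratios, which were -0.66 on array 3 and -0.18 on array 4, so it sets no firm minimum. It was not called.

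Hsd3b2 and Hsd3b3, the forms between Hsd3b5 and Hsd3b6 in the cluster, stayed near a ratio of 0. The brightest Hsd3b2 probe (A_51_P226567) had control signals of 1247, 1025, 1180 and 1123 and GALP signals of 1109, 1006, 1179 and 1228. These overlapped fully, and the pool ratios were -0.10 and 0.06. The second probe (A_52_P318447) had pool ratios of -0.18 and -0.25. The third (A_52_P339759) had -0.22 and 0.30, and on array 4 both of its channels were bright, at 209 in control and 224 in GALP, against 39.1 to 68.8 on arrays 1 to 3. Hsd3b3 (A_52_P459818) had control signals of 792, 493, 550 and 680, GALP signals of 786, 413, 521 and 572, and pool ratios of -0.13 and -0.16. A second Hsd3b3 probe (A_52_P802961) and a second Hsd3b4 probe (A_52_P548963) were at background in all 8 channels and give no fold. The second Hsd3b4 probe is built on another accession, NM_001111336, and carries no reading on the decrease seen at the first. By accession it belongs to Gm4450 as well as Hsd3b4.

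**Figure D2:**
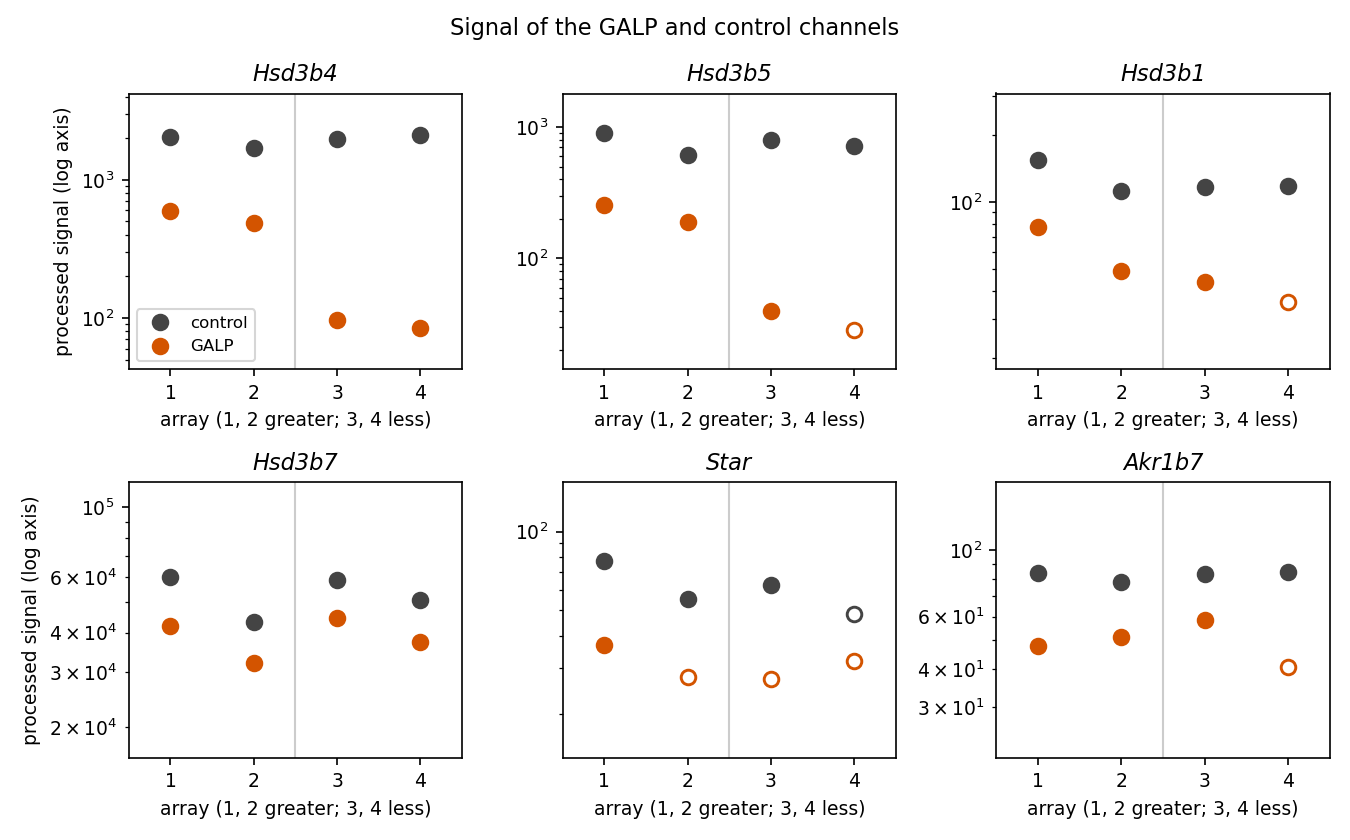
Processed signal of the control and GALP channels on arrays 1 to 4, 1 panel a gene, each with its own log axis; open circles are channels not well above background. In the Hsd3b4 and Hsd3b5 panels the control points stay level while the GALP points step down from arrays 1 and 2 to arrays 3 and 4, and in the Hsd3b7 panel the GALP points run just under the control points on all 4 arrays.

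Hsd3b7 (NM_133943), the bile acid enzyme, lies apart on chromosome 7, 134947105 to 134947164. Its control signals were 60194, 43059, 58692 and 50702 and its GALP signals 42075, 31970, 44594 and 37378. The ranges overlapped across arrays, yet the GALP channel was the lower one within each array. The 4 ratios were -0.52, -0.43, -0.40 and -0.44, the tightest set among the members with a decrease, with a mean of -0.45 ± 0.04 (SD, n = 2 pools). This makes 1.39-fold and 1.34-fold lower. It was not called, since on none of the 4 arrays (0 of 4) was the p-value of its ratio under 0.01. With normexp and loess the mean of this bright probe was -0.49.

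Star (NM_011485) was read by 2 probes on chromosome 8, both dim. The probe at 26924735 to 26924794 had control signals of 77.3, 55.1, 62.2 and 48.6 and GALP signals of 36.8, 27.8, 27.3 and 31.9, without overlap. The GALP channel was well above background on 1 of 4 arrays, array 1. Arrays 1 and 2 gave a mean log2 ratio of -1.03, and arrays 3 and 4 a limit of at least 1.5-fold lower. Only 3 of its 4 array ratios had a p-value under 0.01, so it was not called. The other probe, at 26925460 to 26925519, was well above background in 1 control channel and no GALP channel, and its array ratios ran from -3.12 to 0.27. For that probe the limit was at least 1.01-fold lower on arrays 1 and 2, and arrays 3 and 4 allowed no fold.

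Akr1b7 (NM_009731), on chromosome 6 at 34372905 to 34372964, had control signals of 83.7, 78.0, 83.2 and 84.2 and GALP signals of 47.7, 51.3, 58.6 and 40.6. The channels did not overlap, and the GALP channel of array 4 was at background. The pool ratios were -0.71 and -0.78, 1.63-fold and 1.72-fold lower, with a mean of -0.74 ± 0.05 (SD, n = 2 pools). Only 1 of its 4 array ratios had a p-value under 0.01, and it was not called. With normexp and loess the mean ratios were -0.12 for Akr1b7 and -0.10 for the first Star probe. Its relatives Akr1b3, Akr1b8 and Akr1b10 had mean ratios of 0.05, 0.29 and 0.25, and none was called.

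Over the set, 9 of the 14 probes had a ratio below 0 on all 4 arrays and 0 a ratio above 0 on all 4. The 9 include 8 of the 10 member probes with signal in all 4 control channels. Of the 14951 probes with signal in all 4 control channels, 2464 (16.5%) were below 0 on all 4 arrays. All 4 GALP signals lay under all 4 control signals at 392 (2.62%) of them. Among the members this held for Hsd3b1, Hsd3b4, Hsd3b5 and Akr1b7. It held for the first Star probe too, which lacked signal in the control channel of array 4 and is not among the 14951. The median of the mean ratio was -0.40 over the 10 member probes with signal in all 4 control channels and -0.03 over the 14951. With normexp and loess these medians were -0.09 and -0.01. These counts and medians describe genes chosen for such values.

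**Figure D3:**
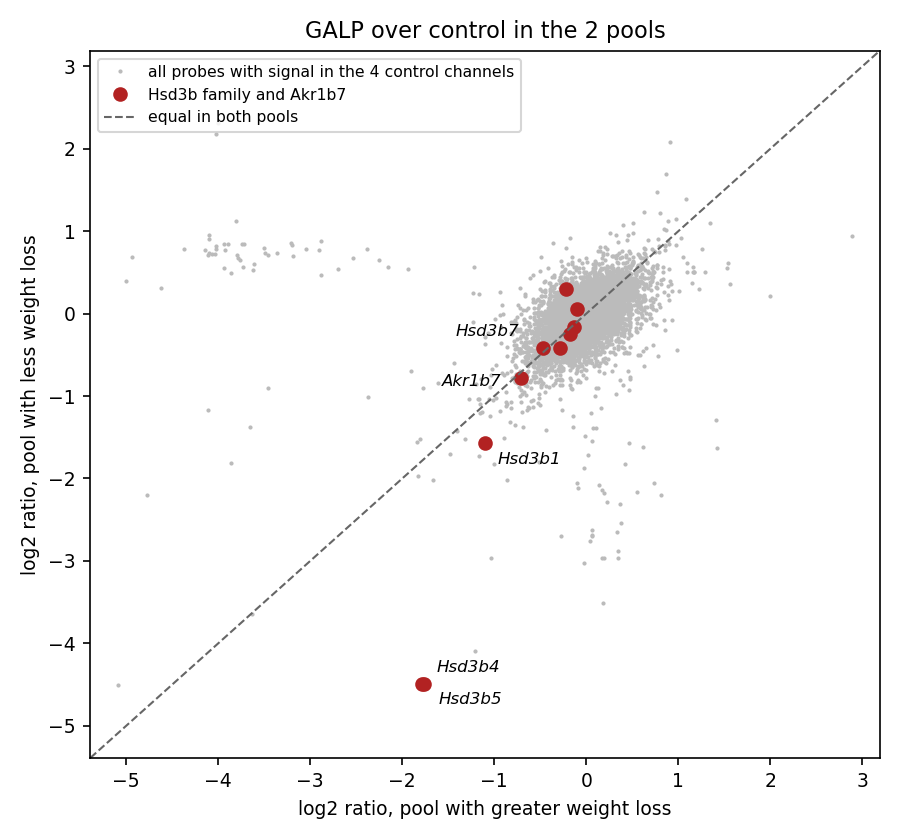
Log2 ratio of GALP over control in the pool with greater weight loss (horizontal axis) against that in the pool with less (vertical axis), for the 14951 probes with signal in all 4 control channels in grey and the 10 member probes among them in red. Hsd3b4 and Hsd3b5 sit on each other at about -1.8 and -4.5, far under the dashed line of equal ratios, and the other members lie within 0.53 of that line.

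On the genome the probes of the 6 clustered genes lie within 353 kb of chromosome 3, in the order Hsd3b4, Hsd3b5, Hsd3b2, Hsd3b3, Hsd3b6 and Hsd3b1. The RefSeq table places Gm10681, to which the Hsd3b4 probe also belongs, between Hsd3b4 and Hsd3b5. The decrease at that probe thus cannot be assigned to 1 of these places. The called genes were not next to each other throughout. Hsd3b4 and Hsd3b5 lie at one end and Hsd3b1 at the other, and the 3 genes between them, starting 91.4 kb from the Hsd3b5 probe, were not called. Of 24 probes of other genes in this region and 500000 bases on either side, 4 had signal in all 4 control channels, with mean ratios from 0.05 to 0.48, and 0 were called. The highest of them, Hao2, was named after its value was seen. It encodes a hydroxyacid oxidase of the peroxisome, lies 22.3 kb beyond the Hsd3b1 probe, and had pool ratios of 0.33 and 0.63.

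**Figure D4:**
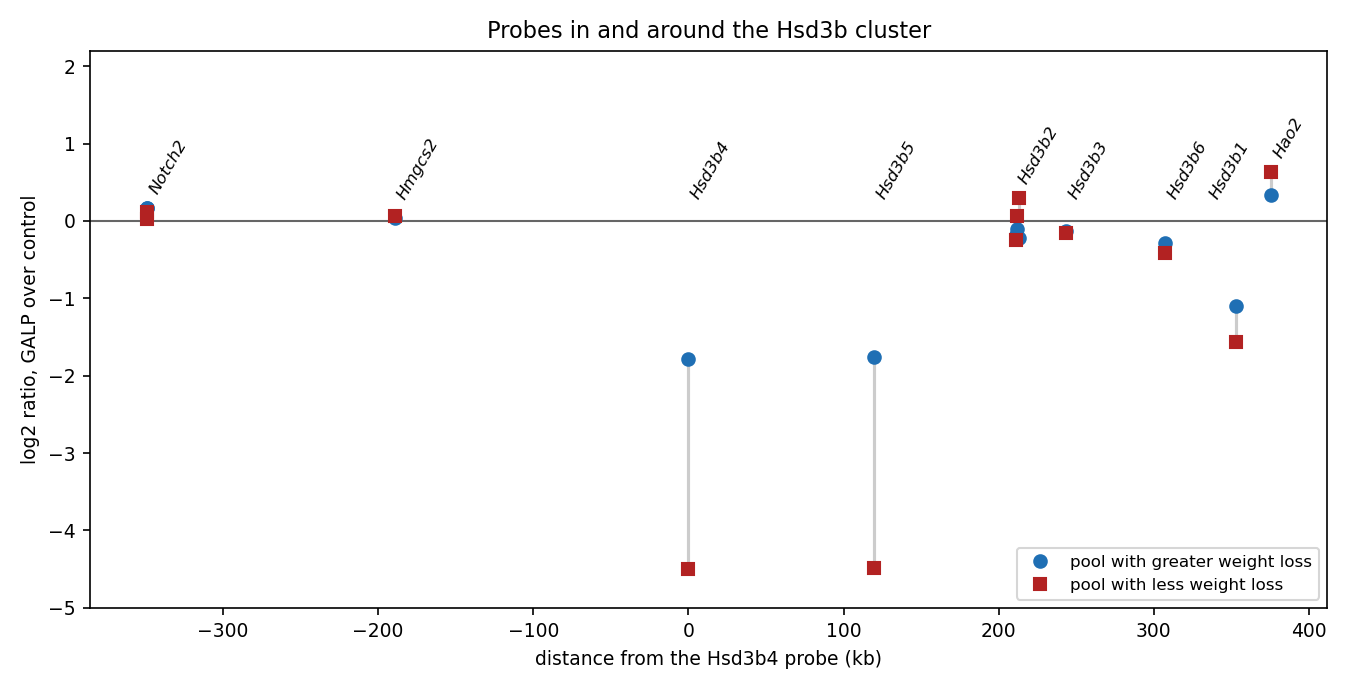
Log2 ratio of GALP over control (vertical axis) against the distance from the Hsd3b4 probe in kb (horizontal axis), for probes in and around the cluster with signal in all 4 control channels; circles are the pool with greater weight loss and squares the pool with less. The drop at Hsd3b4 and Hsd3b5, near -1.8 and -4.5, is not seen at Hsd3b2 and Hsd3b3, which lie between -0.25 and 0.30.

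Hsd3b4 and Hsd3b5 had nearly equal ratios as deposited, though not with normexp and loess, so their promoters are printed. They come from the RefSeq table, on GRCm38.p6. They run from 250 bases before to 50 bases after the start, in the sense of the gene (minus strand). Capitals mark the bases of runs of 8 or more that the other gene's promoter also holds. Overlapping runs are joined, so a longer stretch in capitals need not occur whole in the other promoter. How often unrelated promoters of this length share such runs was not tested, and no other pair was marked.
Hsd3b4 chr3:98510518-98510817: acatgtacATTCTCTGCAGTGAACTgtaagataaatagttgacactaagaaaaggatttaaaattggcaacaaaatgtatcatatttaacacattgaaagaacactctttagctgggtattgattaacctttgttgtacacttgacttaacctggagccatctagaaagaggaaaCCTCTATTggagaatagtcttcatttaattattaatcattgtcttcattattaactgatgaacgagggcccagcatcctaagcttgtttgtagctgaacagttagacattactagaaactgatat
Hsd3b5 chr3:98645485-98645784: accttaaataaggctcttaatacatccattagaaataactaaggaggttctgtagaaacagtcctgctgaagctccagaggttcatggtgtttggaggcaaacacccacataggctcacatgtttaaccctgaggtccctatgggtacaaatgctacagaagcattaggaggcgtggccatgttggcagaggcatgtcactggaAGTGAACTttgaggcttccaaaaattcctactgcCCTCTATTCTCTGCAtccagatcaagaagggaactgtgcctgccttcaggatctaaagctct
The promoter of Gm10681, to which the Hsd3b4 probe also belongs, is not printed. The table gives Hsd3b4 a second start, at 98510423 to 98510722. That promoter holds 8 bases in such runs, against 25 in the printed one. Aligned end to end, 51.1% of the columns of the printed pair were identical, and 50.6% with the second start. The Hsd3b5 promoter was closer to those of Hsd3b3 (55.5% and 56.5%) and Hsd3b2 (55.4%), genes that were not called. Both strands of the 10 member promoters in the table (2 each for Hsd3b3 and Hsd3b4, none for Star) were searched for TTCNNNGAA, the STAT5 motif, for AGGTCA, the half-site of nuclear receptors, for CAAGGTCA, the motif of NR5A receptors, which contains that half-site, and for CAAAGTCCA, an HNF4 motif. Neither printed promoter holds any of these letters. The STAT5 motif stood in the Hsd3b1 promoter as TTCTCAGAA, 122 bases before the start, and in the Hsd3b7 promoter as TTCCTGGAA, 21 bases before it. It is in 8.30% of the 32851 promoters of the table. AGGTCA, in 16.3% of all promoters, stood in the Akr1b7 promoter. The HNF4 motif, in 0.475% of all, stood in both Hsd3b3 promoters, which are 98.7% identical. CAAGGTCA, in 1.56% of all, was in no member promoter.

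Beside the members, 3 genes of the steroid lists were called, over a background of 0.306% lower and 0.135% higher among 16328 genes with signal. Of 24 other genes of steroid hormone synthesis, 22 were on the array and 16 had signal in at least 1 channel. Por, the electron donor of microsomal cytochromes P450, was called higher, with 0.89 and 0.88 in the pools. Nr4a1, an orphan nuclear receptor induced by hormone signals, was called lower, with -0.87 and -1.07. The median mean ratio of the 16 genes was 0.09, against 0.01 over all genes with signal. Cyp17a1, the 17α-hydroxylase, which acts after Hsd3b or beside it, had signal in all 8 channels and ratios of 0.63 and 0.36, and was not called. Of the genes that convert steroids in liver, 21 of 26 had signal, with a median of -0.03. Only Sult1e1, which sulfates estrogens, was called among these, higher, with 0.77 and 1.47. Of 18 genes of bile acid synthesis, the pathway of Hsd3b7, all had signal, none was called, and the median was -0.03. The widest mean ratios in that list were 0.55 for Cyp7a1, the rate-limiting enzyme, and -0.40 for Nr0b2, its repressor.

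Hsd3b5 is a standard of the male-biased liver program, so both sex-biased lists were set beside it. Of 28 other male-biased genes, 21 were on the array and had signal, 4 were called lower and 0 higher, and the median mean ratio was -0.28 (-0.16 with greater and -0.54 with less weight loss). The 4 were Moxd1, a monooxygenase-like protein, Elovl3, a fatty acid elongase (-0.89 and -1.51), Mup1, a major urinary protein (-0.82 and -1.07), and Nudt7, a coenzyme A hydrolase (-0.63 and -0.64). Mup1 shares near-identical copies with other Mup genes, so its signal is that of the group. Of 27 female-biased genes, 21 had signal, 0 were called lower and 2 higher, and the median was 0.43 (0.23 and 0.50). With normexp and loess it was 0.21. The called genes were Acot3, an acyl-CoA thioesterase (0.98 and 1.15), and Cyp2b13, a cytochrome P450 (0.63 and 1.23 at the called one of its 2 probes). These lists were drawn up with results of the same arrays known and are not independent evidence of a direction.

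**Figure D5:**
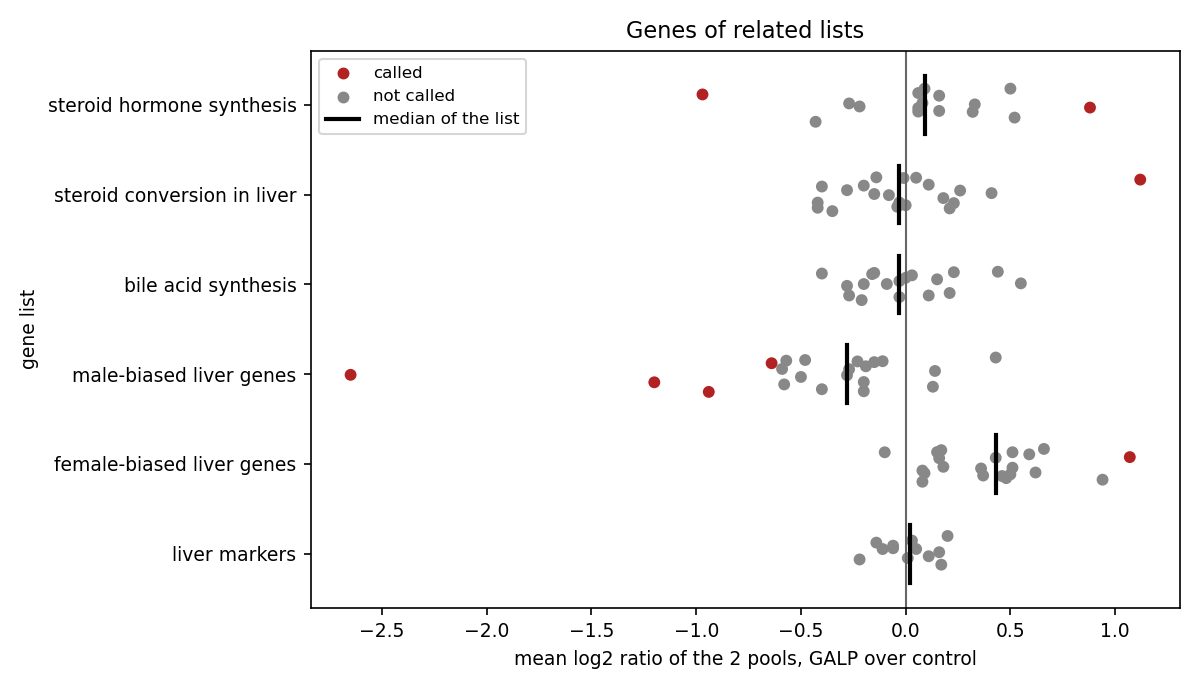
Mean log2 ratio of the 2 pools (horizontal axis) for the genes of 6 lists (vertical axis), 1 point a gene at its brightest probe, red where that probe was called; the black bar is the median of the list. The steroid and bile acid lists centre near 0, the male-biased list has its bar at -0.28 and the female-biased list at 0.43, and Cyp2b13 is grey since only its dimmer probe was called.

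The 5 genes whose 4 array ratios lay nearest to the mean of Hsd3b4 and Hsd3b5 were sought among probes with signal in all 4 control channels. The nearest was Moxd1, at a distance of 1.26, with control signals of 182, 141, 174 and 148 and GALP signals of 78.7, 61.0, 7.68 and 11.5. On arrays 1 and 2 it was 2.31-fold lower. On arrays 3 and 4, where both GALP channels were at background, it was at least 4.35-fold lower. It had the same order of the pools, which its choice by likeness to these ratios favours. The third was Tff1, a stomach trefoil peptide, at 2.91, whose GALP channel passed background on array 1 alone and which allowed only a limit with less weight loss, at least 8.89-fold lower. The last pair, at 3.25 and 3.26, were Sln and Ckmt2, a calcium pump regulator and a creatine kinase of striated muscle. They were near 0 with greater weight loss, at -0.03 and 0.18. With less, Sln was at least 3.02-fold lower and Ckmt2 had a ratio of -3.51, with 1 of 2 GALP channels above background. The likeness covers 4 arrays of 2 pools.

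The libraries carried the RNA of liver. All 12 liver marker genes on the array, Alb, Apoa1 and Ahsg among them, had signal in all 4 control channels, and their mean ratios lay between -0.22 and 0.20. Since Star, Akr1b7 and Hsd3b1 are genes of steroid glands, the markers of such tissue were read too. Cyp11b1, an enzyme of the adrenal cortex, is not on the array. Of 11 adrenal markers that are, 6 had signal in no control channel, among them Cyp21a1, Cyp11b2, Th and Dbh, enzymes of the cortex and medulla. Cyp11a1 had signal on array 2 alone, in both channels, and 1 marker, Mrap, in all 4 control channels. The summed signal of the 11 markers was 3512 to 3973 in the control channels and 2532 to 3632 in the GALP channels, most of it Mrap. Of 9 gonad markers, 3 had signal in no control channel and 2, Cyp17a1 and Prm1, in all 4, with sums of 1763 to 2212 in control and 2427 to 3242 in GALP. Of 12 kidney markers, 6 had signal in no control channel, among them Umod and Slc34a1, and 1, Aqp2, in all 4. Their sums were 211 to 556 in control and 205 to 843 in GALP, the highest of each on array 4. None of these 3 lists held a called gene. Markers of stomach and intestine differed between the pools only in part. Their median ratio was -1.02 for the pool on arrays 1 and 2 and 0.02 for that on arrays 3 and 4. Of 15 genes, Gkn2 and Tff1 were called lower, with Gkn2 at least 11.2-fold lower with greater and 6.65-fold with less weight loss. The Tff1 pool ratios were nearly equal, at -3.63 and -3.64, though its GALP channel passed background on array 1 alone. Gkn3 and Tff2, named after their values were seen, ran the other way from Hsd3b4 between the pools, with -3.19 and 0.70 for Gkn3 and -3.79 and 0.68 for Tff2. The summed signals of the list were 27229 to 36395 in control and 21726 to 31779 in GALP, most of it Fabp2. Atp4b, Pgc and Cdx2 of that list were at background in all channels. The part of stomach RNA in the Hsd3b values was not tested.

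Across all 41037 probes, limma on the 2 pool ratios called 0 probes after Benjamini-Hochberg adjustment (smallest adjusted p = 0.374), while 2049 probes with a higher and 2710 with a lower ratio had an unadjusted p under 0.05. With 1 residual degree of freedom the pool difference of Hsd3b4 and Hsd3b5 itself widens their error, as their SDs of 1.92 and 1.93 show. By contrast the calling rule rests on the p-values of single arrays and takes no account of the spread between pools.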

How the data were processed

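Liver RNA of 2 GALP pools was hybridized with 1 control pool on 4 Agilent 2-colour arrays. The authors deposited scanner output from Feature Extraction (12.0.3.1 in the file headers, 11.0.1.1 in the labels), with background-subtracted, LOWESS dye-normalized processed signals (intensity), log10 ratios of red over green, and a p-value of each ratio. The deposited series table of log10 ratios served as an alternative. Each log10 ratio was turned to GALP over control by the dyes in the labels and put on the log2 scale. Control spots and outlier-marked spots were left out, spots of a probe averaged, and the arrays of a pool averaged, since they share their RNA. Signal means Feature Extraction's mark for well above background. A limit sets the bright side against the lowest signal well above background on each array, or against the dim channel's own signal where higher. It is taken after Aquantile scaling of the channels and is open to dye bias.

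Members and lists were chosen with earlier results of these data known. A list's gene stands at its brightest probe, and called genes and defining markers of the lists are named, with the 5 genes nearest to Hsd3b4 and Hsd3b5. One of these 5, and one gene of a list, are not reported here. Calls used the thresholds of the methods (p-value under 0.01, fold over 1.5 or under 0.75), required here on all 4 arrays and in both pools, and limma 3.58.1 (R 4.3.3) was fitted to the 2 pool ratios. Both were tested on simulated ratios with the same error for every probe and no background. This checks the steps and not their error rate on these arrays. Probe coordinates are mm9 from the files, and promoters GRCm38.p6 from RefSeq. Alternatives were normexp with loess, median centring, the series table, outlier marks kept, 1 dye orientation, 1 pool, looser p-value rules and a signal filter. The number of pools limits the precision, and since the control is a single pool by the methods its own spread enters no test. The limma p-values measure the spread between these pools, while those behind the calls come from single arrays and do not.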

Additional observations from a re-analysis of the deposited data

How the results depend on the processing

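Of the members, 3 genes were called lower (Hsd3b1, Hsd3b4 and Hsd3b5). Normexp with loess left 2, without Hsd3b1. GALP in Cy5 alone gave 4, with Star added, as did a p-value under 0.01 on at least 1 array of each pool. Without any p-value rule there were 6, with Star, Akr1b7 and Hsd3b7 added. The cause was not tested. Leaving out a pool gave 3 to 4, where Star joined without the pool with less weight loss. Hsd3b4 and Hsd3b5 were called under all 10 alternatives to the rule. Normexp, median centring and the series table kept the p-values of Feature Extraction, so there only the sign and fold could change. Median centring moved no member ratio by more than 0.01, and the largest shift, 1.96, was that of Hsd3b5 with normexp. The sign turned at the Hsd3b2 probe A_51_P226567 (normexp, GALP in Cy3 alone, without the pool with greater weight loss), at A_52_P339759 (GALP in Cy3 alone, without the pool with less weight loss) and at the Hsd3b3 background probe A_52_P802961 (series table).

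Over all probes, the rule's 24 higher and 54 lower calls became 9 and 26 with normexp, 134 and 140 with GALP in Cy5 alone, 140 and 156 with GALP in Cy3 alone, 53 and 167 where each pool needed only 1 array with a low p-value, and 154 and 360 without a p-value rule. Leaving out a pool gave 96 to 122 higher and 150 to 162 lower. With limma, normexp gave 42 higher and 53 lower and the signal filter 1 lower. limma without a pool leaves no residual degrees of freedom and was not run. Of the 14 probes, 6 were well above background in all 8 channels, so the size of the low GALP values is limited by background. No replicate block was fitted, since the labels number no replicates, and each ratio already sets GALP against control within an array.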
